A study of Mus musculus with 22 samples.

Results

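Cohesin and condensin are the ring-shaped protein complexes that hold and fold chromosomes, and the genes described here are 10 subunits of them among 24411 genes listed in both deposited tables. The members were chosen by name, not by their values: the cohesin subunits Smc1a, Smc3, Rad21, Stag1 and Stag2, and the condensin subunits Smc2, Smc4, Ncapd2, Ncapg and Ncaph. All 10 passed the filter on low counts in both tables. Expression was measured by RNA sequencing in primary neural stem cells from the hippocampus of adult mice, grown in medium with EGF and bFGF, each at 10 ng/ml. The series asked how loss of O-GlcNAcylation, the attachment of single sugar units to nuclear and cytosolic proteins by O-GlcNAc transferase (OGT), bears on the fate of these cells.

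There were 22 libraries in 4 groups. In the knockdown table, 5 libraries (ShOgt) came from cells given lentivirus encoding a short hairpin RNA against Ogt and 6 (ShLuc) from cells given the control hairpin, each for 3 days with 10 viral particles for every cell. The inhibitor table is made up of 5 libraries (12p5uM_OSMI, called OSMI-1 here) from cells kept for 24 h in 12.5 µM of the OGT inhibitor OSMI-1 and 6 (Vehicle_OSMI) from cells given the same volume of DMSO. Both knockdown groups thus carried a virus, and the inhibitor groups had none named. The labels give no genotype, strain, exact age or hairpin sequence. Nor do they say whether replicates are separate cultures or animals; p-values therefore reflect variation among these libraries alone, and that variation could be technical. Levels are normalized read counts, that is, reads divided by a size factor for each library. The tables were normalized separately, so only differences within a table are compared between them.

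Cohesin entraps sister DNA molecules from replication until anaphase, and it also extrudes the chromatin loops that shape interphase chromosomes. Its ring is closed by an SMC1 and SMC3 heterodimer and the kleisin RAD21, with STAG1 or STAG2 bound to the kleisin. Condensin compacts chromosomes for mitosis. Its SMC2 and SMC4 pair is shared by condensin I, completed by NCAPD2, NCAPG and NCAPH, and by condensin II, completed by NCAPD3, NCAPG2 and NCAPH2. Cohesin is needed throughout the cell cycle and in cells that no longer divide, whereas many condensin genes are transcribed mainly in dividing cells, through promoters that often carry E2F sites and the cell-cycle homology region (CHR).

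The promoter sequences are shown because the condensin genes moved together in both tables. The RefSeq promoter table (GRCm38.p6) covers 250 bases before to 50 bases after a start site, and it held windows for 7 of the 10 members; Rad21, Stag2 and Smc4 had no entry. A search on both strands for the CHR letters TTTGAA or TTCGAA found a match in Smc2, Ncapd2 and Ncapg, that is in 3 of the 4 condensin windows (Ncaph held none) and in 0 of the 3 cohesin windows. Over all 32851 windows, 19.2% held such a match. In the 28-base stretches below, printed 5′ to 3′ on the strand of the gene, capitals mark the match, which in Smc2 reads as the reverse complement.
Ncapg, chr5:45669884-45669911, plus strand, match 30 bases upstream of the start: cgcgatagttgTTTGAAaactctggcgc
Ncapd2, chr6:125191693-125191720, minus strand, match 123 bases upstream: agccgttgaggTTTGAAcagggaattgc
Smc2, chr4:52439065-52439092, plus strand, match 145 bases upstream: cgctttccatgTTCAAAacggtatagtc
Smc2, chr4:52439236-52439263, plus strand, match 27 bases after the start: tcgcgccgaaaTTCAAAggaacagttcc
The condensin II windows also held the letters, in Ncapg2 and Ncaph2 and in 1 of the windows of Ncapd3.
Ncapg2, chr12:116405407-116405434, plus strand, match 18 bases upstream: acgcgggtgtgTTTGAAtctggtccgag
Ncaph2, chr15:89355686-89355713, plus strand, match 22 bases upstream: ttctttacttcTTCGAAactgggcccgc

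E2F-type letters (TTTCGCGC, TTTGGCGC, TTTCCCGC or TTTGCCGC, both strands) stood in the windows of 2 cohesin genes, Smc1a and Stag1, and of 2 condensin genes, Ncapd2 and Ncapg, against 2.26% of all windows. The CCAAT letters stood in 5 of the 7 windows (all but Smc3 and Ncaph), against 37.4% of all windows. No match of 1 motif overlapped a match of another in these windows. Such matches describe letters and are not evidence of binding.
Ncapd2, chr6:125191578-125191605, minus strand, E2F-type match 8 bases upstream: ccatctcgttgTTTGGCGCgtatcctgc
Ncapg, chr5:45669945-45669972, plus strand, E2F-type match after the start, as reverse complement: tgtcggaagccGCGGGAAActgagtcct
Stag1, chr9:100643420-100643447, plus strand, E2F-type match 17 bases upstream: aaaaggccacgTTTCCCGCgccgctgct
Smc1a, chrX:152016454-152016477, plus strand, E2F-type match after the start: gcactgcgctaTTTCCCGCgcggg

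A second sequence feature was looked up in the 3′UTRs: the letters AACATGC, which were chosen with earlier results of these data known. Of the 10 members, only Stag2 carries it in an annotated 3′UTR (GENCODE M21, GRCm38), at 2 sites, each followed by T. Among 20990 genes with a 3′UTR, 8.67% carry it. The sites are given with 9 bases on either side, capitals marking the match; whether either has any effect was not tested.
Stag2 site 1, chrX:42275395-42275419, plus strand: ggagaatatAACATGCttatgctta
Stag2 site 2, chrX:42275948-42275972, plus strand: ccagtcttgAACATGCttatcccat

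Recovered reads numbered 7.22 to 13.2 M per library in the knockdown table. In the inhibitor table they numbered 4.52 to 5.93 M, apart from 12.8 M in OSMI-1 replicate 4. Ogt itself stood between 737 and 1004 in ShLuc and between 349 and 524 in ShOgt, and it rose in the inhibitor table from 404 to 506 in vehicle to 563 to 658 in OSMI-1. Of 10 neural stem cell markers, Nes, Vim, Slc1a3 and Fabp7 were the most abundant in every group. Others were low: Pax6 (means of 55.5 to 188), Sox2 (58.7 to 65.6), Hes1 (19.4 to 60.3) and Prom1 (1.30 to 15.1). Some of the abundant ones changed with treatment. Slc1a3 fell in both tables (log2 fold changes of -0.53 and -0.62), and Vim rose after knockdown (0.49) and fell after OSMI-1 (-0.50). The summed levels of 6 microglial markers did not exceed 9.88 in any library. On principal components, ShLuc 1, ShLuc 3 and ShOgt 3 stood apart in the knockdown table and vehicle 1 and OSMI-1 5 in the inhibitor table. The counts of members called or separated are given with and without them, and the related lists where that changes a count.

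On GRCm38 the cohesin genes lie on chromosomes X (Smc1a, 152016428 to 152062694, and Stag2, 42149317 to 42277185), 19 (Smc3, 53600398 to 53645833), 15 (Rad21, 51962240 to 51991747) and 9 (Stag1, 100597798 to 100959375). The condensin genes lie on chromosomes 4 (Smc2, 52439243 to 52488260), 3 (Smc4, 69004738 to 69034623), 6 (Ncapd2, 125168007 to 125191701), 5 (Ncapg, 45669919 to 45700546) and 2 (Ncaph, 127103809 to 127133954). Per kilobase of the principal transcript, 3 members stood well above the rest in ShLuc, and the same 3 led in vehicle. In ShLuc the order was Ncaph (554 ± 44.9 normalized counts per kb, SD, n = 6), Smc1a (497 ± 30.0), Ncapd2 (482 ± 45.2), Smc3 (153 ± 14.9), Smc2 (113 ± 22.4), Ncapg (91.9 ± 11.8), Smc4 (87.1 ± 16.7), Stag2 (76.9 ± 17.0), Rad21 (69.7 ± 11.1) and Stag1 (27.5 ± 4.27). Smc1a and Ncapd2 did not differ beyond their spread, and neither did neighbours from Ncapg to Rad21. Vehicle cells gave the same order except that Smc4 (99.4 ± 23.2) and Ncapg (93.1 ± 14.2) changed places, within their spread. The 3 leading values in vehicle were 318 ± 15.5 for Ncaph, 194 ± 18.8 for Smc1a and 159.7 ± 13.4 for Ncapd2. Stag1 was the lowest member per kb in both control groups, below its alternative Stag2. Within the cohesin ring, the level per kb of Smc1a stood above that of Smc3, and both stood above that of the kleisin gene Rad21.

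After Ogt knockdown, 7 of the 10 members fell and 0 rose, called by limma at an adjusted p below 0.05; 0 rose at an unadjusted p below 0.05 or by edgeR either. All 5 condensin subunits fell, with a median log2 fold change of -0.80, and 2 of 5 cohesin subunits fell, with a median of -0.21. Over all 12136 genes tested, 31.8% were called while 16.4% were called lower and 15.4% higher, and the median log2 fold change was 0.01. Without ShLuc 1, ShLuc 3 and ShOgt 3, the same count of 7 members was called. In bulk RNA, fewer cells of a type and less RNA per cell cannot be told apart. Alongside these falls, the proliferation marker Mki67 fell (-1.03 ± 0.12), and summed oligodendrocyte-lineage markers, mostly Olig1, ranged from 17773 to 20743 in ShLuc and from 10012 to 11543 in ShOgt; 3 of the 4 tested genes of that list fell, and Mbp was at or near 0. The nuclear RNA Malat1 took 0.0366 to 0.0450% of reads in ShLuc and 0.0446 to 0.126% in ShOgt. Their part in the results was not tested.

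**Figure D1:**
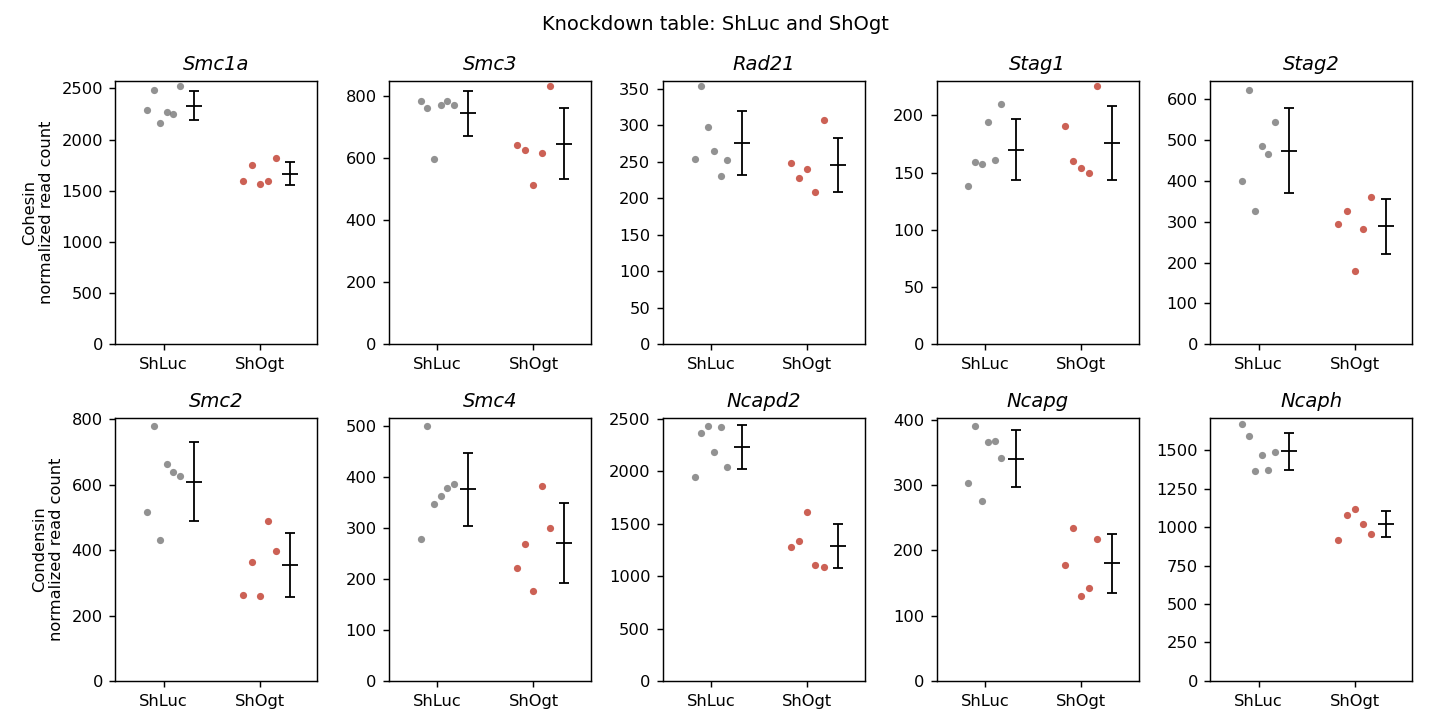
Normalized read counts (vertical axes, starting at 0) of the 10 members in each ShLuc (grey, n = 6) and ShOgt (red, n = 5) library, cohesin in the upper row and condensin in the lower row; points are libraries and bars show mean ± SD. The ShOgt points of Smc1a, Ncapd2, Ncapg and Ncaph lie wholly below the ShLuc points, while those of Smc3, Rad21 and Stag1 overlap them.

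Among the subunits particular to condensin I, Ncapd2 encodes a HEAT-repeat subunit that binds the kleisin and DNA. Its normalized counts ran from 1942 to 2435 in ShLuc (median 2277) and stood at 1281, 1334, 1609, 1109 and 1089 in ShOgt replicates 1, 2, 3, 5 and 6. Each ShOgt library lay below each ShLuc library. The mean fell from 2233 ± 209 (SD, n = 6) to 1284 ± 210.3 (n = 5), a log2 fold change of -0.81 ± 0.10 (SE; limma adjusted p = 3.41e-06). Ncapg, the other HEAT-repeat subunit, ran from 275 to 390 in ShLuc (median 353) and stood at 178, 234, 130, 143 and 217 in ShOgt. It was again lower in each ShOgt library than in each ShLuc library, and its fall of -0.94 ± 0.16 was the largest in size among the members in this table (adjusted p = 0.000128). Ncaph, the kleisin that closes the condensin I ring, ran from 1366 to 1673 in ShLuc (median 1478) and stood at 915, 1078, 1119, 1020 and 956 in ShOgt. The groups did not overlap, and the log2 fold change was -0.55 ± 0.08 (adjusted p = 3.13e-05).

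The condensin SMC pair fell as well, with overlapping groups. Smc2 ran from 432 (ShLuc 3) to 779 in ShLuc (median 633) and stood at 261, 364, 258, 488 and 398 in ShOgt. Only ShOgt 5 reached into the ShLuc range. Its mean fell from 610 ± 121 to 354 ± 97.0 (-0.80 ± 0.17, adjusted p = 0.000998). Smc4 ran from 279 to 499.9 in ShLuc (median 371) and stood at 221, 269, 176, 382 and 301 in ShOgt, so that ShOgt 5 and 6 lay among the ShLuc libraries. The fall of -0.50 ± 0.17 (adjusted p = 0.0306) was the least secure of the 7. It was lost when any 1 of ShLuc 2, 5 or 6 or ShOgt 1, 2 or 3 was left out, with an adjusted p between 0.0506 and 0.0885, and with no filter on low counts (0.0568). With replicate number as a block in the limma fit, its adjusted p was 0.0107.

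Of the cohesin ring, only Smc1a fell. This X-linked SMC subunit ran from 2166 to 2523 in ShLuc (median 2280) and stood at 1594, 1751, 1570, 1595 and 1822 in ShOgt. The groups did not overlap, and the mean went from 2330.2 ± 141 to 1666 ± 113 (-0.48 ± 0.07, adjusted p = 2.57e-05). Its partner Smc3 ran from 597 (ShLuc 3) to 782 in ShLuc (median 769.6) and stood at 642, 626, 514, 616 and 831 in ShOgt. Here ShOgt 6 was the highest library of all. The log2 fold change of -0.21 ± 0.11 did not pass (adjusted p = 0.157; 95% interval -0.45 to 0.02), although it passed without ShOgt 6 (-0.31, adjusted p = 0.0299). The kleisin Rad21 ran from 231 to 354 in ShLuc (median 259.7) and stood at 248, 228, 240.0, 208 and 307 in ShOgt. These groups overlapped almost fully, with a log2 fold change of -0.16 ± 0.13 (adjusted p = 0.398; 95% interval -0.44 to 0.12).

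The alternative STAG subunits moved differently. Stag2, an X-linked gene and the STAG subunit with the higher level here, ran from 326 (ShLuc 3) to 623 in ShLuc (median 477) and stood at 294, 326, 181, 283 and 361 in ShOgt. Only ShOgt 6 lay above the lowest ShLuc library, apart from a near tie of ShOgt 2 with ShLuc 3. Its mean fell from 475 ± 105 to 289 ± 67.7 (-0.72 ± 0.17, adjusted p = 0.00307). Stag1 ran from 139 to 209.7 in ShLuc (median 160.4) and stood at 191, 159.8, 154, 149 and 226 in ShOgt, a log2 fold change of 0.04 ± 0.15 (adjusted p = 0.856; 95% interval -0.28 to 0.37). Within a library, the log2 ratio of Stag1 to Stag2 was -1.46 ± 0.30 (SD, n = 6) in ShLuc and -0.69 ± 0.31 (n = 5) in ShOgt. All 5 ShOgt ratios, from -1.02 to -0.23, lay above all 6 ShLuc ratios, from -1.96 to -1.04. Counting members for which every ShOgt library lay below every ShLuc library gave 4 of 10 (Smc1a, Ncapd2, Ncapg and Ncaph), against 9.96% of all genes tested. Without ShLuc 1, ShLuc 3 and ShOgt 3, that count was 6 of 10, with Stag2 and Smc2 added, against 15.9% of all genes tested.

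After OSMI-1, 6 of the 10 members fell and 0 rose by limma, and 0 rose at an unadjusted p below 0.05 or by edgeR. The 5 condensin subunits all fell again, with a median log2 fold change of -1.07, and 1 of 5 cohesin subunits, Rad21, fell, with a cohesin median of -0.19. Over all 11349 genes tested, 24.8% were called while 13.2% were called lower and 11.6% higher, with a median log2 fold change of 0.00. All 6 of the fallers had every OSMI-1 library below every vehicle library, which 7.71% of tested genes did. Without vehicle 1 and OSMI-1 5, both counts were again 6, and 9.95% of tested genes then had every OSMI-1 library below every vehicle library. Mki67 fell here too (-1.34 ± 0.13), and Malat1 took 0.277 to 0.323% of reads in vehicle and 0.670 to 1.18% in OSMI-1. Summed neural stem cell markers ranged from 22694 to 27342 in vehicle and from 17701 to 19376 in OSMI-1. Of the 9 tested genes of that list, 4 fell and 1 rose. Summed astrocyte markers, mostly Aldh1l1, ranged from 1929 to 2268 in vehicle and from 2403 to 2680.4 in OSMI-1. Of the 3 astrocyte genes tested, 2 rose. Gfap, with too few reads to test, went the other way (means of 8.97 and 3.20), and Aqp4 was near 0. Their part in the results was not tested.

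**Figure D2:**
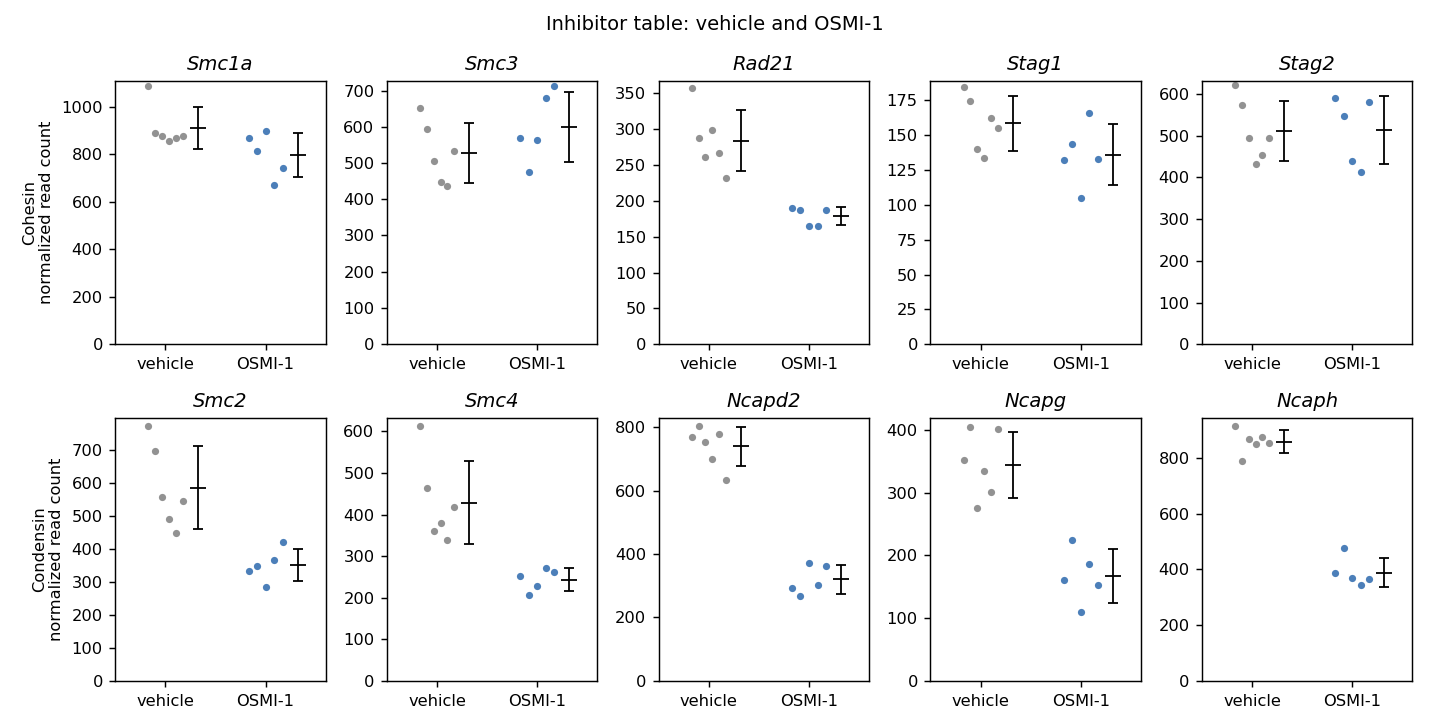
Normalized read counts (vertical axes, starting at 0) of the 10 members in each vehicle (grey, n = 6) and OSMI-1 (blue, n = 5) library, cohesin in the upper row and condensin in the lower row; points are libraries and bars show mean ± SD. All 5 condensin panels and Rad21 show the OSMI-1 points wholly below the vehicle points; Smc3, Stag1 and Stag2 overlap.

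The kleisin gene Ncaph ran from 787 to 915 in vehicle (median 860.0) and stood at 388, 477, 367, 344 and 367 in OSMI-1 replicates 1, 2, 4, 5 and 6. The fall from 858 ± 41.7 (SD, n = 6) to 389 ± 52.1 (n = 5) gave a log2 fold change of -1.15 ± 0.09 (adjusted p = 7.54e-10). Ncapd2 ran from 635 to 803 in vehicle (median 761) and stood at 293, 269, 372, 302 and 363 in OSMI-1. Its fall of -1.21 ± 0.10 (adjusted p = 2.02e-09) was the largest in size among the members in this table. Ncapg ran from 275 to 405 in vehicle (median 343) and stood at 161, 225, 109.7, 186 and 152 in OSMI-1 (-1.07 ± 0.15, adjusted p = 8.68e-06). All 3 subunits particular to condensin I were thus lower by more than 1 log2 unit.

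For the shared SMC pair the falls were smaller. Smc2 ran from 447 to 772 (vehicle 1) in vehicle (median 550.5) and stood at 333, 347, 285, 366 and 419 in OSMI-1, a log2 fold change of -0.72 ± 0.12 (adjusted p = 0.000137). Smc4 ran from 340.0 to 613 (vehicle 1) in vehicle (median 398) and stood at 252, 206, 228, 271 and 262 in OSMI-1, a change of -0.79 ± 0.13 (adjusted p = 6.1e-05). The mean of Smc2 went from 584 ± 125 to 350.0 ± 48.9 and that of Smc4 from 429 ± 100.1 to 244 ± 26.7. Vehicle 1 was the highest vehicle library for Smc2 and Smc4 and for every cohesin subunit.

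Rad21 was the cohesin subunit that fell after OSMI-1. Its counts ran from 232 to 357 in vehicle (median 278) and stood at 190.5, 188, 164, 165 and 187 in OSMI-1. Separation was complete, from a mean of 284 ± 42.8 to 179 ± 13.1 (-0.65 ± 0.11, adjusted p = 0.000142). Smc1a ran from 854 to 1087 (vehicle 1) in vehicle (median 876) and stood at 868, 813, 896, 668 and 741 in OSMI-1. The change of -0.19 ± 0.09 did not pass (adjusted p = 0.112; 95% interval -0.37 to -0.01), and it was -0.08 without vehicle 1 and OSMI-1 5. Smc3 ran from 438 to 650.5 in vehicle (median 519) and stood at 568, 476, 562, 679 and 712 in OSMI-1, a change of 0.18 ± 0.11 (adjusted p = 0.25; 95% interval -0.05 to 0.41). The SMC genes of the cohesin ring therefore stayed on the side of no call while the kleisin fell.

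Neither STAG gene was called after OSMI-1. Stag2 ran from 431 to 621 in vehicle (median 494) and stood at 591, 546, 439.8, 414 and 581 in OSMI-1, a log2 fold change of 0.00 ± 0.11 (adjusted p = 0.984; 95% interval -0.22 to 0.23). Stag1 ran from 134 to 185 in vehicle (median 159) and stood at 132, 144, 105.0, 166 and 133 in OSMI-1 (-0.23 ± 0.13, adjusted p = 0.237; 95% interval -0.50 to 0.05). The within-library log2 ratio of Stag1 to Stag2 was -1.68 ± 0.11 in vehicle and -1.91 ± 0.35 in OSMI-1, with overlapping libraries: OSMI-1 5, at -1.31, lay above all vehicle libraries and the other 4 OSMI-1 libraries lay below them.

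**Figure D3:**
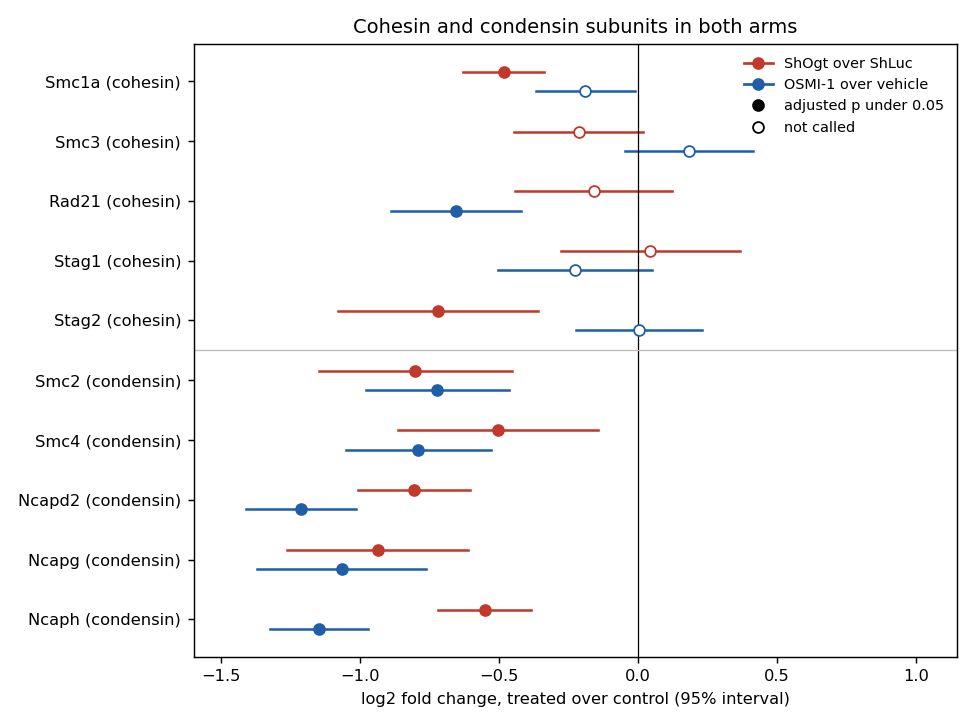
Log2 fold changes (horizontal axis) of the 10 members with 95% intervals, ShOgt over ShLuc in red and OSMI-1 over vehicle in blue; filled points have a limma adjusted p below 0.05. All 10 condensin points are filled and below 0, from -0.50 to -1.21, whereas 3 of 10 cohesin points are filled: Smc1a and Stag2 after knockdown and Rad21 after OSMI-1.

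The log2 fold changes of the 2 tables, which share no samples, were then compared gene by gene. The tables also differ in depth and in the share of Rn45s reads, as given above. The difference (knockdown minus OSMI-1) passed for 5 of the 10 members at an adjusted p below 0.05, against 23.9% of the 11269 genes tested in both. For Stag2 the difference was -0.73 ± 0.20 (adjusted p = 0.00847), lower after knockdown. For Ncaph it was 0.60 ± 0.12 (adjusted p = 0.000151), with the larger fall after OSMI-1. Both differences passed in all 22 fits that left out 1 library.

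The remaining 3 calls were less secure. Ncapd2 differed by 0.41 ± 0.14 (adjusted p = 0.0247), with the larger fall after OSMI-1, but not when ShOgt 3 (0.0615) or OSMI-1 2 (0.0609) was left out. Rad21 differed by 0.49 ± 0.18 (adjusted p = 0.0356), and that call was lost in 10 of the 22 fits without 1 library (adjusted p up to 0.0895): ShLuc 1, 4, 5 or 6, ShOgt 1 or 6, vehicle 1 or 4, or OSMI-1 4 or 5. Smc1a differed by -0.29 ± 0.11 (adjusted p = 0.0475), lost in 15 of the 22 (adjusted p up to 0.108), and kept only without ShLuc 1, ShLuc 3, ShOgt 2, ShOgt 6, vehicle 1, OSMI-1 5 or OSMI-1 6. It was also lost with no filter on low counts (0.059), with TMM scaling (0.0518) and with replicate number as a block. Without the 5 libraries that stood apart, 3 members passed: Smc1a (-0.42), Stag2 and Ncaph, while Rad21 and Ncapd2 had adjusted p-values of 0.126 and 0.142.

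No difference between the tables was called for the other 5 members. Smc3 differed by -0.40 ± 0.16 (adjusted p = 0.0613; 95% interval -0.72 to -0.08) and passed in 5 of the 22 fits without 1 library, those without ShLuc 3, ShOgt 6, vehicle 1, vehicle 2 or OSMI-1 2. Smc2 differed by -0.08 (95% interval -0.50 to 0.34), Smc4 by 0.29 (-0.15 to 0.72), Ncapg by 0.13 (-0.30 to 0.56) and Stag1 by 0.27 (-0.14 to 0.68). Differences of up to 0.72 log2 units thus lie within these intervals.

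The balance of the complexes was also read within each library, as the mean log2 level of the 5 condensin genes minus that of the 5 cohesin genes. It was 0.55 ± 0.08 (SD, n = 6) in ShLuc and 0.14 ± 0.20 (n = 5) in ShOgt, and 0.46 ± 0.05 (n = 6) in vehicle and -0.36 ± 0.07 (n = 5) in OSMI-1. The ShOgt libraries stood at -0.05, 0.27, 0.20, 0.36 and -0.10, all below the lowest ShLuc library at 0.43. Every OSMI-1 library, from -0.45 to -0.28, lay below every vehicle library, from 0.40 to 0.51. This measure depends on the transcript lengths of the chosen genes, so only its differences within a table carry meaning.

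Between the condensins, the kleisin genes diverged in the inhibitor table. The log2 ratio of Ncaph to its condensin II counterpart Ncaph2 was -0.57 ± 0.05 in vehicle and -1.41 ± 0.17 in OSMI-1, without overlap, and -1.56 ± 0.10 in ShLuc and -1.73 ± 0.10 in ShOgt, with overlap. For Ncapd2 and Ncapd3 the ratio went from 0.65 ± 0.22 in vehicle to 0.08 ± 0.21 in OSMI-1 and from 1.25 ± 0.15 in ShLuc to 1.06 ± 0.25 in ShOgt, with overlap in both tables. For Ncapg and Ncapg2 it went from -0.25 ± 0.21 to -0.72 ± 0.35 and from -0.54 ± 0.24 to -0.50 ± 0.43. For the SMC pair the log2 ratio of Smc2 to Smc4 was 0.69 ± 0.21 in ShLuc and 0.40 ± 0.11 in ShOgt, and 0.45 ± 0.13 in vehicle and 0.52 ± 0.19 in OSMI-1. The ShOgt ratios, from 0.24 to 0.55, lay below all ShLuc ratios but that of ShLuc 3, at 0.31, while the inhibitor groups overlapped.

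**Figure D4:**
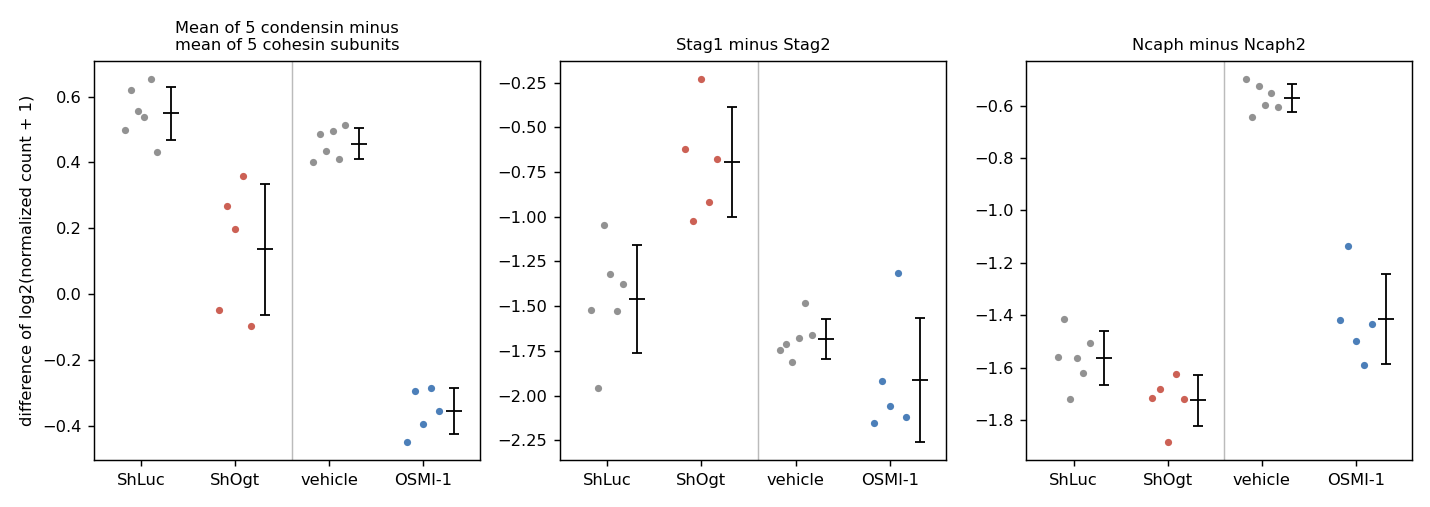
Differences of log2(normalized count + 1) within each library (vertical axes) for condensin minus cohesin means, Stag1 minus Stag2 and Ncaph minus Ncaph2; points are libraries, bars show mean ± SD, and a grey line parts the separately normalized tables. Condensin relative to cohesin is lower in every treated library of both tables, whereas Stag1 relative to Stag2 is higher in all ShOgt libraries and not in the inhibitor table.

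Condensin II, which acts on chromosomes from prophase onward, moved with condensin I. All 3 of its particular subunits fell in both tables, with median log2 fold changes of -0.62 after knockdown and -0.60 after OSMI-1. Of all genes tested, 16.4% and 13.2% were called lower. Ncapg2 went from 497 ± 73.3 to 257 ± 65.0 after knockdown (-0.98 ± 0.16) and from 407 ± 24.1 to 268 ± 20.3 after OSMI-1 (-0.60 ± 0.09). Ncapd3 changed by -0.62 ± 0.08 and -0.64 ± 0.10 and Ncaph2 by -0.39 ± 0.08 and -0.30 ± 0.06 (log2). The largest adjusted p of these 6 changes was 0.00078.

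Regulators of cohesin were called in both directions. Of 10 genes for loading, release and acetylation, 1 rose and 3 fell after knockdown (median 0.03), and 3 rose and 3 fell after OSMI-1 (median -0.04). Without vehicle 1 and OSMI-1 5, 2 rose and 2 fell, with Esco1 and Ctcf lost. Over all genes tested, 15.4% were called higher and 16.4% lower after knockdown, and 11.6% higher and 13.2% lower after OSMI-1. With only 10 genes in the list, these counts are not read as a result about the list. Cdca5, which encodes sororin, the protector of cohesion after replication, fell by 0.88 ± 0.13 and 0.93 ± 0.16, and the acetyltransferase gene Esco2 fell by 0.82 ± 0.20 and 1.05 ± 0.19. Nipbl, the cohesin loader, rose after OSMI-1 from 223 ± 46.4 to 346 ± 41.3 (0.65 ± 0.13, adjusted p = 0.000886), where each OSMI-1 library, from 287 to 397, lay above each vehicle library, from 152 to 273. After knockdown Nipbl changed by 0.13 ± 0.12 (adjusted p = 0.435), and its difference between the tables passed (-0.52 ± 0.18, adjusted p = 0.0282). The other acetyltransferase gene, Esco1, rose after OSMI-1 (0.58 ± 0.19, adjusted p = 0.0327), as did Mau2, the partner of Nipbl (0.36 ± 0.11, adjusted p = 0.0155). Falls in 1 table were called for Pds5b, a cohesin regulator, after knockdown (-0.52 ± 0.17, adjusted p = 0.0265) and for Ctcf, which marks loop boundaries, after OSMI-1 (-0.52 ± 0.18, adjusted p = 0.0335). These 4 genes were named after their values were seen. Hdac8, the SMC3 deacetylase, rose after knockdown, from a range of 139 to 211 in ShLuc to one of 208 to 284 in ShOgt (0.61 ± 0.14, adjusted p = 0.0028). After OSMI-1 it changed by -0.05 ± 0.21 (adjusted p = 0.898), and the difference between tables missed the threshold (0.65 ± 0.25, adjusted p = 0.0519).

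Genes that protect or cleave cohesin at mitosis fell as a group in count: 6 of 7 in each table, with medians of -0.79 and -1.33, while 1 rose after knockdown, the securin gene Pttg1 (named after its value was seen), by 0.33 ± 0.11. Over all genes tested, 16.4% were called lower after knockdown and 13.2% after OSMI-1. The mitotic kinase genes Plk1 (-0.84 ± 0.07 and -1.63 ± 0.08) and Aurkb (-1.09 ± 0.10 and -1.33 ± 0.08) fell in both, as did Cdc20, the activator of the anaphase-promoting complex (-0.62 ± 0.08 and -1.35 ± 0.08), and Sgol1, the shugoshin that guards centromeric cohesin (-0.85 ± 0.14 and -1.23 ± 0.16). The difference between the tables passed for Plk1 (0.79 ± 0.11, adjusted p = 3.9e-07) and Cdc20 (0.72 ± 0.12, adjusted p = 5.5e-06), with the larger fall after OSMI-1, as for Ncaph and Ncapd2. It did not pass for Aurkb (adjusted p = 0.179) or Sgol1 (0.195).

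Partners in chromosome compaction fell in 6 of 9 cases after knockdown (median -0.67) and in 7 of 9 after OSMI-1 (median -1.13), and 0 rose by limma, at an unadjusted p below 0.05 or by edgeR. Without the libraries that stood apart, 7 fell after knockdown, with Smchd1 added. Top2a, the mitotic topoisomerase, went from 1953 ± 252 to 1086 ± 154 (-0.85 ± 0.10) and from 1534 ± 231 to 709 ± 71.1 (-1.11 ± 0.09). Cdk1, the kinase that phosphorylates condensin at mitotic entry, fell by 0.67 ± 0.09 and 1.38 ± 0.09, the chromosome motor gene Kif22 by 0.84 ± 0.10 and 1.14 ± 0.10, and Incenp, the scaffold of Aurora B, by 0.82 ± 0.10 and 1.32 ± 0.12. The SMC5/6 complex, the SMC complex best known for DNA repair, had 2 of 6 tested genes (of 7 listed) called lower in each table, with medians of -0.22 and -0.15, beside 16.4% and 13.2% of all genes called lower. Without the libraries that stood apart, 1 of the 6 fell after knockdown, with Nsmce1 lost. Nsmce1 fell in both (-0.21 ± 0.07 and -0.29 ± 0.09), Smc6 after knockdown (-0.40 ± 0.14) and Nsmce4a after OSMI-1 (-0.74 ± 0.21). Of 4 meiotic subunits only Stag3 had enough reads to test, and it was not called in either table (adjusted p = 0.0559 and 0.968), though it was called lower after knockdown without the libraries that stood apart; Rad21l had 0 reads in all libraries.

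**Figure D5:**
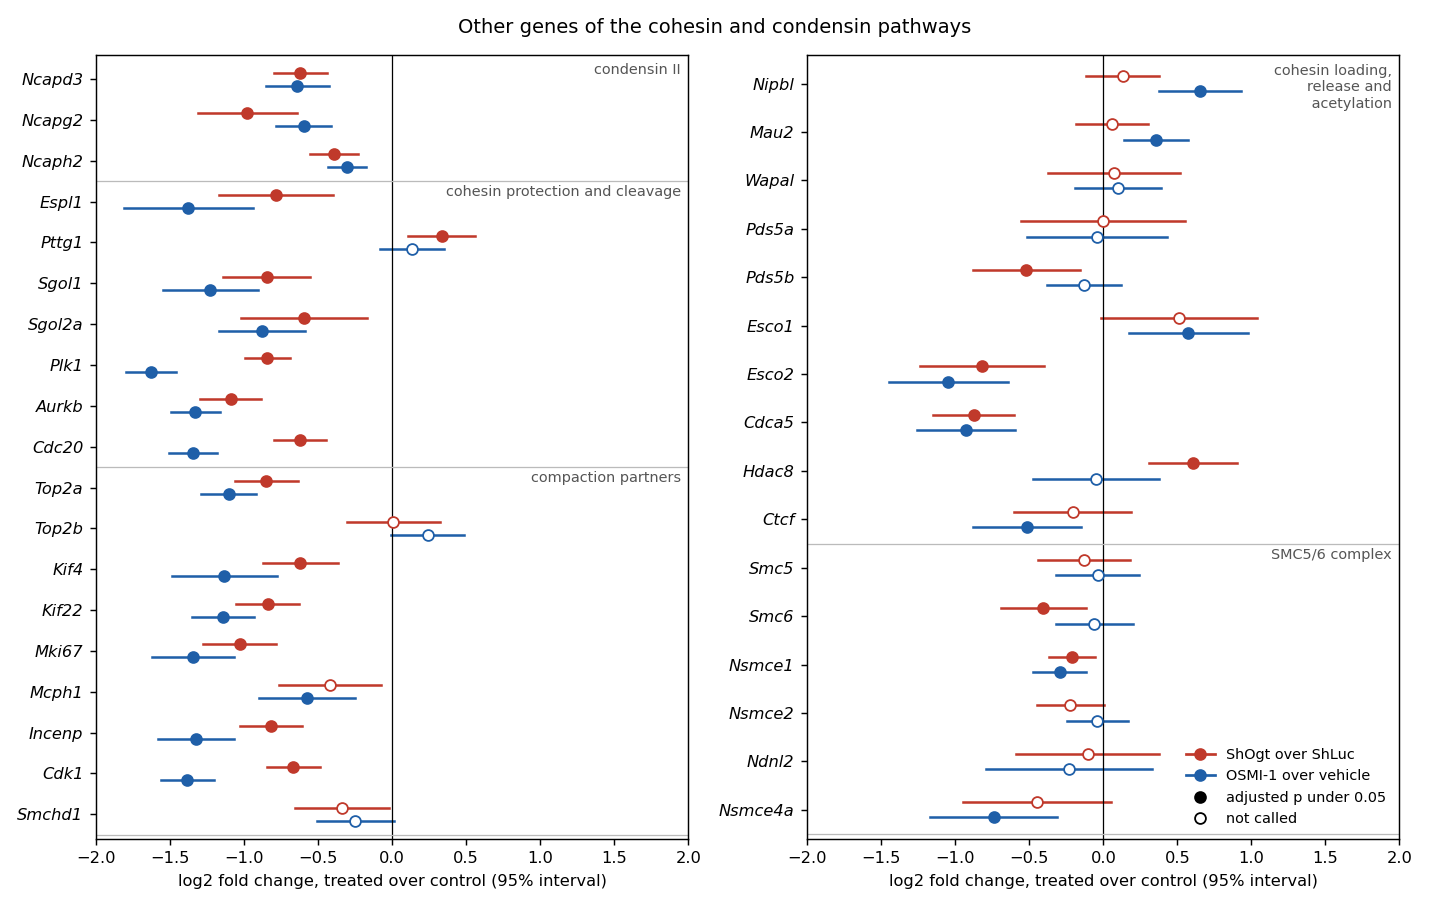
Log2 fold changes (horizontal axes) with 95% intervals for the tested genes of 5 related lists, ShOgt over ShLuc in red and OSMI-1 over vehicle in blue; filled points have a limma adjusted p below 0.05. Condensin II, the mitotic regulators and the compaction partners lie mostly below 0 in both tables, while Nipbl lies above 0 after OSMI-1 and Hdac8 after knockdown.

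Across all 22 libraries, each centred on the mean of its control group, the genes whose profile was most like the mean condensin profile were Top2a (Pearson r = 0.99), Rrm2 (0.97), Pbk (0.97), Rrm1 (0.96) and Ccna2 (0.96). For the mean cohesin profile they were Caprin1 (0.88), Casp8ap2 (0.88), Ipo11 (0.86), Dph6 (0.84) and Med1 (0.84). These values describe likeness over libraries that share the treatment contrasts and their tables' scaling. Within groups, with each library taken relative to its group mean (11 libraries per table), Smc2 and Smc4 varied together in both tables (r = 0.88 and 0.82). Pairs within cohesin had a median r of 0.53 in the knockdown table and 0.37 in the inhibitor table, whereas pairs within condensin had medians of -0.03 and 0.17 and ranged from -0.47 to 0.88 and from -0.69 to 0.82. Condensin members that fell together with treatment thus did not in general vary together between libraries of a group. ShLuc 3 was the lowest ShLuc library for Smc1a, Smc3, Stag2, Smc2, Ncapg and Ncaph, and ShOgt 3 was the lowest ShOgt library for Smc1a, Smc3, Stag2, Smc2, Smc4 and Ncapg.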

How the data were processed

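Per the submitters' processing notes, the authors used STAR, RSEM and DESeq2, with versions not given in the sources used here. The build they name, hg38, is human, and gene symbols in both tables are those of mouse. The extract protocol names a strand-specific poly(A) kit and the series text Smart-Seq2. The members, lists and tests were chosen with earlier results of these data known.

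Each deposited table holds gene counts divided by a size factor per library (a signal that is never negative), per the file headers. The authors also deposited a log2 fold change with its error, a test statistic (a score) and a p-value for each gene, none of which was used for calls. Every value was a whole multiple of 1 step per library (100% within 0.001), so reads were recovered. Genes were kept by edgeR (4.0.16) filterByExpr on those reads (minimum count 10, total 15). log2(normalized count + 1) was tested with limma (3.58.1; trend, two-sided, no covariates) within each table, with Benjamini-Hochberg adjustment over all tested genes and a threshold of 0.05. For genes with few reads, log2 fold changes on this scale can be larger or smaller than those of edgeR. After knockdown they were 2.17 against 1.62 for Tek and 0.51 against 0.59 for Esco1. To compare tables, the knockdown log2 fold change minus that of OSMI-1 was divided by its standard error (both limma errors combined in quadrature) and referred to a t distribution with Satterthwaite degrees of freedom. Alternatives were other pseudocounts, filters, TMM scaling, a replicate block, edgeR's quasi-likelihood test, DESeq2 (1.42.0) and left-out libraries. Named genes are all members and, of each related list, up to 4 called genes with the smallest limma p. Promoters and 3′UTRs came from RefSeq (GRCm38.p6) and GENCODE M21 (GRCm38), levels per kb from 1 principal transcript a gene. R 4.3.3 was used.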

Additional observations from a re-analysis of the deposited data

Results flagged for a closer look

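Differences between the tables passed their test for 5 members (knockdown minus OSMI-1, log2): Smc1a at -0.29, Rad21 at 0.49, Stag2 at -0.73, Ncapd2 at 0.41 and Ncaph at 0.60. In 2 groups of libraries, 1 library lay far from the others. Smc3 in ShLuc 3 had a normalized count of 597, where the nearest ShLuc library had 759 and the highest 782. Smc1a in vehicle 1 had 1087, where the nearest vehicle library had 890.5 and the lowest 854. With 40 groups looked at, about 2 such libraries arise by chance.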

How the results depend on the processing

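The count of members called stayed within 6 to 7 of 10 after knockdown under the 9 other settings (6 to 8 with 1 library left out) and at 6 after OSMI-1 under every setting run. Over all genes, the calls ranged from 3493 to 4063 (3208 to 3897 with 1 library left out) after knockdown and from 2376 to 2964 (2428 to 2680.0) after OSMI-1. For the difference between tables, the 5 members called became 3 without the 5 libraries that stood apart, 6 with a normal distribution, and 3 to 6 with 1 library left out. The cause of these changes was not tested. Values near 0 changed sign: Stag1 after knockdown to -0.0061 without the libraries that stood apart (-0.0495 to 0.107 with 1 library left out), Stag2 after OSMI-1 to -0.00056 with TMM scaling (-0.0492 to 0.0786 with 1 left out), the difference of Smc2 (-0.205 to 0.0234 with 1 left out) and that of Ncapg (-0.0112 to 0.246). Over all tested genes, same-numbered libraries of treated and control groups deviated together little (r from -0.01 to 0.16 in the knockdown table and -0.10 to 0.05 in the inhibitor table), and not every library correlated best with its own number. The highest r, 0.16, was that of ShOgt 3 with ShLuc 3, its best match. On principal component 3 these libraries stood at -34.0 and -33.6, and the others of the knockdown table from -1.27 to 22.9. Replicate 3 thus shared a deviation across the knockdown groups, and its source was not tested. Single members can differ from the average over all genes. With the replicate block, 7 members and 3954 genes were called after knockdown, 6 and 2376 after OSMI-1 and 4 members for the difference, and Stag2 after OSMI-1 stood at -0.0028. After knockdown the block lowered the limma adjusted p of Stag2 (0.00307 to 0.000129), Smc2 (0.000998 to 5.58e-05) and Smc4 (0.0306 to 0.0107). It raised that of Ncaph (3.13e-05 to 9.5e-05). No setting moved the median of all genes by more than 0.1. Depth limits the genes with few reads, such as the meiotic subunits.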
